A study of Mus musculus with 8 samples.

Results

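The BCL2 family genes described here are 10 of the 55536 genes in the deposited count tables. They are Bcl2, Bcl2l1 (encoding BCL-XL), Mcl1 and the Bcl2a1 copies Bcl2a1a, Bcl2a1b and Bcl2a1d, whose proteins oppose cell death, and Bcl2l11 (encoding BIM), Bad, Bid and Bak1, whose proteins promote it. They were chosen by gene symbol, each symbol matched 1 Ensembl gene, and 9 of the 10 passed the filter on low counts. The RNA came from C57BL/6 CD8+ T cells carrying the transgenic OT-1 receptor for the ovalbumin peptide SIINFEKL, taken from lymph nodes of mice aged 5 to 12 weeks on a Rag-1KO background, which have no other T or B lymphocytes. All cultures received 100 nM SIINFEKL for 2 days and, after the peptide was washed off, 20 ng/mL recombinant human IL-2 for 2 days. During the IL-2 step, 4 cultures also received 10 µM GC7, and the other 4, the mock-treated controls, received its acetic acid vehicle. GC7 is a spermidine-like inhibitor of deoxyhypusine synthase, the enzyme that starts the hypusination of the translation factor eIF5a, and the study's authors state that it also acts independently of eIF5a, so these libraries compare the compound, not loss of eIF5a. The study describes the samples as biological replicates.

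Proteins of the BCL2 family decide whether the outer mitochondrial membrane is permeabilised. BAK and BAX form the pores, BCL2, BCL-XL, MCL1 and A1 hold them and their activators in check, and the BH3-only proteins, among them BIM, BAD, BID, PUMA and NOXA, either bind the protective proteins or activate the pore formers. In T cells, signals from the antigen receptor and from IL-2 raise protective members, and BIM is the main BH3-only protein of the contraction that follows a response.

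The 3 Bcl2a1 genes lie together on chromosome 9 and are near copies, which decides how their reads can be assigned. On GRCm38, Bcl2a1a (ENSMUSG00000102037) spans chr9:88956900-88962419, Bcl2a1b (ENSMUSG00000089929) spans chr9:89199209-89207827, and Bcl2a1d (ENSMUSG00000099974) spans chr9:88723285-88731914. Their coding sequences are 516 bases each and are 97.9% identical between Bcl2a1a and Bcl2a1b, 98.6% between Bcl2a1a and Bcl2a1d and 98.8% between Bcl2a1b and Bcl2a1d. The first 120 coding bases are printed 5′ to 3′ from the GRCm38 reference, at chr9:88957051-88957170 (plus strand) for Bcl2a1a, chr9:89199360-89199479 (plus strand) for Bcl2a1b and chr9:88731600-88731719 (minus strand) for Bcl2a1d, with capitals at the 7 positions where the 3 copies are not all identical.
Bcl2a1a: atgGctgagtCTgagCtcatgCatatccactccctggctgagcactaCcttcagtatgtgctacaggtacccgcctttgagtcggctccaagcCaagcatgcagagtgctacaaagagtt
Bcl2a1b: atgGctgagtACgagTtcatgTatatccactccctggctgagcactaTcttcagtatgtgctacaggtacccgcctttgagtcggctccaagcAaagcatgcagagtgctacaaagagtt
Bcl2a1d: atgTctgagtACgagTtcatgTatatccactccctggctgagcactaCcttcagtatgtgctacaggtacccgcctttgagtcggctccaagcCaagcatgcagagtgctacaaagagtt
A read that lies wholly between capitals cannot by itself be assigned to 1 copy. Of all 100-base windows in their annotated transcripts, 43.5% for Bcl2a1a, 56.8% for Bcl2a1b and 54.7% for Bcl2a1d also occur in another copy or in Gm29094, a gene model that overlaps Bcl2a1b and had no counts. The same share was 0 for Bcl2l1, Mcl1 and Bcl2l11, 4.41% for Bcl2, 9.44% for Bak1, 14.7% for Bad and 15.1% for Bid, where it comes from genes that overlap on the opposite strand.

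Among the promoters of the family, 2 are printed because they hold GTAAACA, the core letters bound by FOXO factors, which are known activators of Bcl2l11 and Bbc3 when growth factor signals fall. The promoters are RefSeq windows on GRCm38.p6 from 250 bases before to 50 bases after an annotated start, at chr2:128125788-128126087 (plus strand) for Bcl2l11 and chr7:16310011-16310310 (plus strand, at a start inside the annotated gene) for Bbc3, with the motif, or its reverse complement TGTTTAC, in capitals.
Bcl2l11: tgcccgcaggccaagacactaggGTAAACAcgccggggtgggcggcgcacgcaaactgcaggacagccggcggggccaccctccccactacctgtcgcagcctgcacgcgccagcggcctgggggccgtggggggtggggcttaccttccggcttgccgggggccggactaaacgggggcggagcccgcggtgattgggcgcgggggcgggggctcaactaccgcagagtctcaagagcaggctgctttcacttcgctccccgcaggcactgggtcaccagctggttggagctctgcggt
Bbc3: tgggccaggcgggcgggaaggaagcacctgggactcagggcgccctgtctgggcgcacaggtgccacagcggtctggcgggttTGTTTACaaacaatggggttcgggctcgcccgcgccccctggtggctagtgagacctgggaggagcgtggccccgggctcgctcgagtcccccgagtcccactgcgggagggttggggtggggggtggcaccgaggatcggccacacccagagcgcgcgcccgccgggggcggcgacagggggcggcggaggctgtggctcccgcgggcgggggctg
Both strands of 56 promoter windows were searched, which belonged to 41 of the 50 genes of the family and of the wider cell death list described further on. Bcl2l11 (1 of its 2 windows) and Bbc3 (1 of its 3) were the 2 genes of the 41 to hold GTAAACA, a share near that of all genes in the table, of which 4.05% held it in a window (3.65% of 32851 promoters). The STAT core TTCNNNGAA occurred in no member's window, in 1 of the 41 genes (Huwe1) and in 9.55% of all genes (8.30% of all promoters). These matches describe letters in short windows only.

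The libraries held 17528776 to 25284730 counts, and a difference in totals between GC7- and mock-treated cells was not detected (p = 0.429, two-sided exact permutation test, n = 4 per group, smallest possible p 0.0286). TMM factors, which set the scale of each library, ran from 0.935 to 1.04 and were lower in all 4 mock libraries (p = 0.0286, exact permutation test). The CD8 T cell markers Cd8a, Cd8b1, Cd3d, Cd3e, Cd3g, Cd2, Cd28 and Gzmb were all well detected, with a summed level of 6936 to 8235 CPM in mock-treated and 4790 to 6310 CPM in GC7-treated libraries (p = 0.0286, exact permutation test). Granzyme B made most of that sum (4438 to 2907 CPM in the means). Of the other 7 markers, Cd3e, Cd3g and Cd2 also fell (log2 fold changes −0.23, −0.37 and −0.61, FDR 0.00789, 0.00412 and 1.44e-05), Cd3d, Cd8b1 and Cd28 were lower in the mean without passing the threshold, and Cd8a rose (703 to 978 CPM). B cell markers summed to 7.72 to 10.4 CPM and 4.91 to 6.06 CPM (6 genes, with Ms4a1 and Pax5 at 0 in every library), myeloid markers to 9.69 to 12.4 CPM and 5.96 to 9.65 CPM (7 genes), and the stromal and endothelial list, nearly all of it Pecam1 and with Cdh5 at 0, to 52.3 to 57.1 CPM and 30.6 to 32.6 CPM (5 genes), each with p = 0.0286 by the exact permutation test. NK, CD4 T and erythroid lists stayed at or below 3.19 CPM in every library. The part of these marker differences in the family's values was not tested, and in bulk RNA fewer cells of a type and less RNA per cell cannot be told apart.

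Mock replicate 2 stood apart from the other mock libraries along transcript length. Relative to the mean of the other 3 mock libraries, its median log2 difference was 0.26 over 1854 genes with under 2000 exon bases and −0.29 over 1915 genes with at least 8000 exon bases, whereas the other 7 libraries lay within 0.10 of their group in both classes. Bcl2 (9157 exon bases) and Bcl2l11 (8029) belong to the long class, and Bcl2a1a, Bcl2a1b and Bcl2a1d (817 to 863) to the short one, so values without this library are given where they bear on a member.

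Of the 9 members tested, 6 were higher in GC7-treated cells (Bcl2, Bcl2l1, Bcl2a1b, Bcl2a1d, Bcl2l11 and Bid), 1 was lower (Mcl1) and 2 did not pass (Bad and Bak1), at an FDR under 0.01. Calls were frequent in these data: 23.0% of the 11189 genes tested were higher, 23.5% were lower and 46.6% were called in either direction. Only Bcl2a1d also exceeded a 2-fold change, a size passed upward by 3.14% and downward by 5.24% of all genes tested. The median log2 fold change was 0.42 over the 9 tested members and 0.02 over all genes tested. By role, 4 of the 5 tested protective members and 2 of the 4 pro-death members rose. The groups did not overlap for 6 members upward and 2 downward, a separation found upward in 28.1% and downward in 27.5% of all genes tested.

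**Figure D1:**
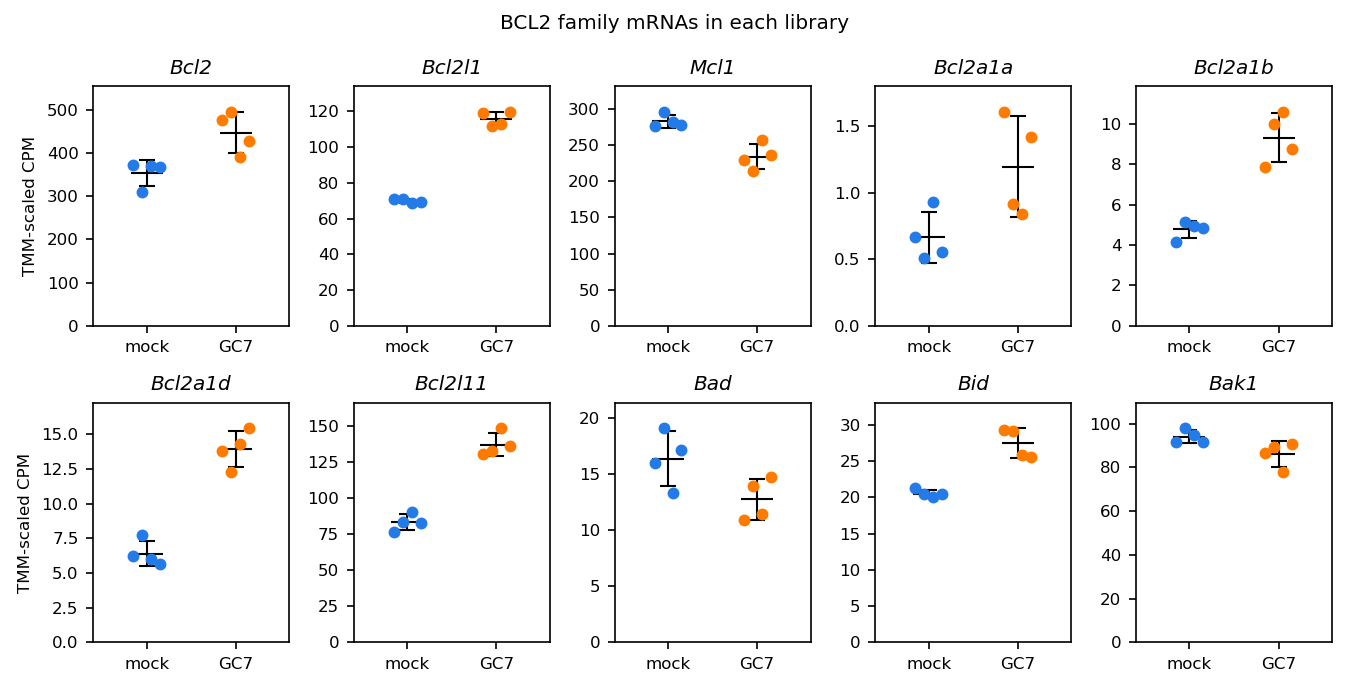
TMM-scaled CPM (linear axes starting at 0, each panel on its own scale) of the 10 BCL2 family mRNAs; points are the 4 mock (blue) and 4 GC7 (orange) libraries, and the bar with whiskers is the mean ± SD. The groups are apart upward for Bcl2, Bcl2l1, Bcl2a1b, Bcl2a1d, Bcl2l11 and Bid and apart downward for Mcl1 and Bak1, whereas Bcl2a1a and Bad overlap.

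Bcl2l1 (ENSMUSG00000007659, chr2:152780668-152831728, minus strand, GRCm38) encodes BCL-XL, the protective member that T cells induce on activation. Its level was 71.2, 70.8, 68.7 and 69.6 CPM in mock replicates 1 to 4 and 119, 112, 113 and 119.5 CPM in GC7 replicates 1 to 4. Both groups were tight and far from overlapping, with means of 70.1 ± 1.15 and 115.8 ± 3.97 CPM (SD, n = 4). The change was 1.65-fold (log2 fold change 0.72, SE 0.054, FDR 3.38e-07). It had the narrowest interval among the members (0.61 to 0.84 on the log2 scale) and was called with each library left out in turn. Gene-level counts do not separate the long protective from the short pro-death spliced form of this gene.

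Bcl2 (ENSMUSG00000057329, chr1:106538178-106714274, minus strand) encodes the founding protective protein, which is high in resting T cells and is maintained by cytokines. Its level was 371, 308.5, 369 and 367 CPM in mock replicates 1 to 4 and 475, 495, 390 and 427 CPM in GC7 replicates 1 to 4. All 4 GC7 libraries lay above all mock libraries, but mock replicate 2 was well below its group, and the GC7 libraries were widely spread. The means were 353.9 ± 30.4 and 446.9 ± 47.3 CPM (SD, n = 4), a 1.26-fold difference (log2 fold change 0.34, SE 0.088, FDR 0.00562). The call was not stable: it held in 3 of the 8 fits that left out 1 library (FDR 0.00168 to 0.0196), being lost without mock replicate 1, 3 or 4 (FDR 0.0111, 0.0120 and 0.0134) and without GC7 replicate 1 or 2 (0.0184 and 0.0196). Without mock replicate 2, the log2 fold change was 0.27 with an FDR of 0.00849.

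Mcl1 (ENSMUSG00000038612, chr3:95658788-95663176, plus strand) encodes a short-lived protective protein on which activated T cells depend, and it was the only member called lower. Its level was 276, 296, 282.5 and 278 CPM in mock replicates 1 to 4 and 229, 215, 256 and 236 CPM in GC7 replicates 1 to 4. Every GC7 library lay below every mock library. The means were 283 ± 9.08 and 234 ± 17.4 CPM (SD, n = 4), a fold of 0.826 (log2 fold change −0.28, SE 0.065, FDR 0.00309). The call was lost without GC7 replicate 1, 2 or 4 (FDR 0.0135, 0.0151 and 0.0113), and when library totals replaced the TMM factors, which moved the median log2 fold change of all genes from 0.02 to 0.11, Mcl1 stood at −0.18 with an FDR of 0.0224. Counts per gene do not separate its protective and shortened spliced forms either.

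The Bcl2a1 genes encode A1, a protective protein induced by NF-κB after activation, and they gave the largest rises of the family at low counted levels. Bcl2a1d was at 6.20, 7.74, 6.01 and 5.66 CPM in mock replicates 1 to 4 and at 13.8, 12.3, 14.3 and 15.4 CPM in GC7 replicates 1 to 4. Bcl2a1b was at 4.15, 5.14, 4.94 and 4.86 CPM and at 7.89, 9.97, 10.6 and 8.77 CPM in the same order. For both copies the lowest GC7 library was above the highest mock library.

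The change was 2.16-fold for Bcl2a1d (log2 fold change 1.11, SE 0.119, FDR 7.22e-06) and 1.92-fold for Bcl2a1b (0.94, SE 0.12, FDR 4.15e-05). Without mock replicate 2, which had the highest Bcl2a1d level of its group, the log2 fold changes were 1.21 and 0.98. Bcl2a1a was under the filter, with 13, 12, 20 and 11 counts in mock and 33, 20, 15 and 34 counts in GC7 replicates, so that the groups overlapped. In a fit without the filter its log2 fold change was 0.77 with an FDR of 0.0291.

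Because the copies share reads, their counts were also summed. The sum of the 3 copies was 215, 315, 255 and 221 counts in mock and 478, 509, 461 and 614 counts in GC7 replicates. The summed counts rose 2.05-fold (log2 fold change 1.04, SE 0.087, FDR 8.54e-07). The part of the sum assigned to each copy overlapped between the groups. It was 50.6 to 57.8% (mock) and 53.1 to 60.3% (GC7) for Bcl2a1d, 37.7 to 43.9% and 33.9 to 43.0% for Bcl2a1b, and 3.81 to 7.84% and 3.25 to 6.90% for Bcl2a1a. How reads that match more than 1 position were counted is not stated, so the division among copies and their absolute levels are uncertain.

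Bcl2l11 (ENSMUSG00000027381, chr2:128126038-128162547, plus strand) encodes BIM, the BH3-only protein that binds all protective members and drives T cell deletion. Its level was 76.9, 83.8, 90.5 and 82.6 CPM in mock replicates 1 to 4 and 131, 133, 149 and 136 CPM in GC7 replicates 1 to 4. Every GC7 library stood far above the highest mock library, and the means were 83.5 ± 5.58 and 137 ± 7.99 CPM (SD, n = 4). The rise was 1.64-fold (log2 fold change 0.72, SE 0.067, FDR 2.38e-06) and was called with each library left out in turn. Without mock replicate 2 the log2 fold change was 0.71.

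Bid (ENSMUSG00000004446, chr6:120891930-120916853, minus strand) encodes a BH3-only protein that caspase-8 cleaves into its active form, tying death receptors to mitochondria. Its level was 21.3, 20.4, 20.0 and 20.4 CPM in mock replicates 1 to 4 and 29.3, 29.2, 25.9 and 25.6 CPM in GC7 replicates 1 to 4. The mock libraries were nearly identical and all lay below the GC7 libraries. The rise was 1.34-fold (log2 fold change 0.42, SE 0.074, FDR 3.95e-04). Bid shares 628 exon bases with Bcl2l13 on the opposite strand, which itself rose (log2 fold change 0.40, FDR 3.92e-04). The strand setting of the counting is not stated, so reads from the shared stretch cannot be told apart.

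Bad (ENSMUSG00000024959, chr19:6941861-6951899, plus strand) encodes a BH3-only protein that is held inactive by phosphorylation downstream of growth factor signals. Its level was 15.9, 19.0, 13.3 and 17.1 CPM in mock replicates 1 to 4 and 10.9, 13.9, 11.4 and 14.7 CPM in GC7 replicates 1 to 4. The groups overlapped, and the difference did not pass the threshold (log2 fold change −0.36, 95% interval −0.64 to −0.08, FDR 0.0291). It passed without mock replicate 3, the lowest of its group (FDR 0.0088), and in the fit without a filter on low counts (FDR 0.00407). Bad shares 524 exon bases with Gpr137 on the opposite strand, which had 283 to 393 counts in mock and 269 to 355 counts in GC7 libraries.

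Bak1 (ENSMUSG00000057789, chr17:27019810-27029009, minus strand) encodes BAK, the pore former that sits in the mitochondrial membrane of healthy cells. Its level was 91.5, 97.9, 94.8 and 91.8 CPM in mock replicates 1 to 4 and 86.7, 89.2, 77.7 and 90.7 CPM in GC7 replicates 1 to 4. The groups did not overlap, yet the highest GC7 library lay just below the lowest mock library. The difference did not pass the threshold (log2 fold change −0.13, 95% interval −0.26 to 0.01, FDR 0.104), and its interval excludes a change of the size seen for Bcl2l11 or Bcl2l1 in either direction.

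**Figure D2:**
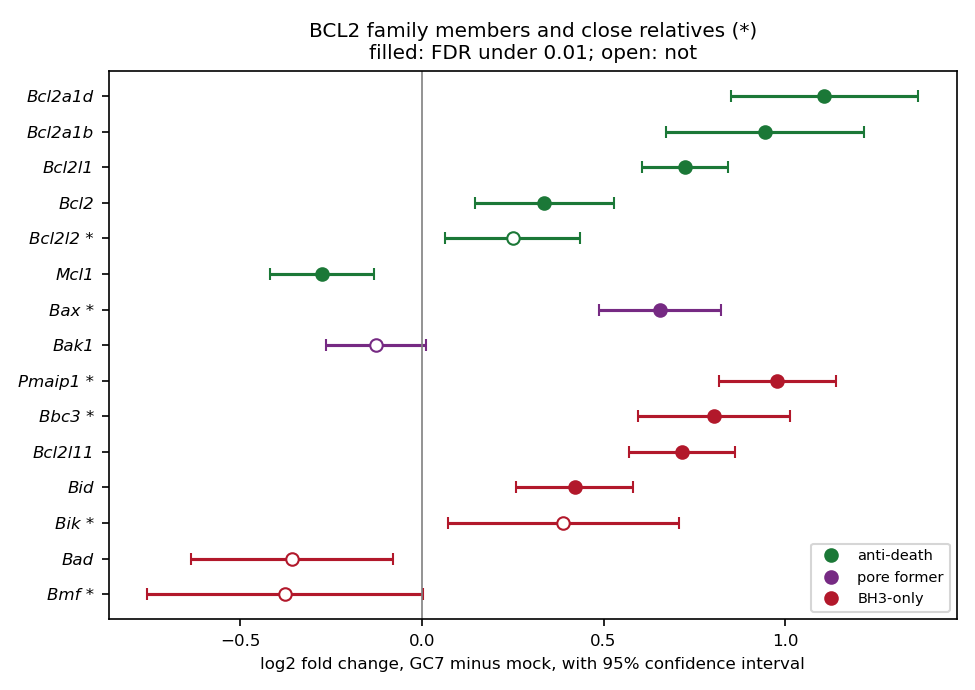
Log2 fold change (GC7 minus mock) with its 95% confidence interval for the 9 tested members and 6 close relatives (asterisk), coloured by role, filled where the FDR was under 0.01. Rises occur in all 3 role classes, from 0.34 for Bcl2 to 1.11 for Bcl2a1d, and Mcl1 at −0.28 is the only called fall.

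To compare genes with each other, levels were expressed per kilobase of all annotated exons of a gene. This length need not be that of the expressed form, so the comparison is approximate. Mcl1 was the most abundant member in both groups, at 82.9 ± 2.66 CPM per kb in mock and 68.5 ± 5.08 in GC7 libraries (SD, n = 4). Bak1 (39.1 ± 1.25) and Bcl2 (38.7 ± 3.32) followed in mock libraries without differing beyond their spread, whereas in GC7 libraries Bcl2 (48.8 ± 5.17) lay above Bak1 (35.8 ± 2.41) in every library. Bcl2l1 came next (15.3 ± 0.251 and 25.3 ± 0.866), then Bcl2l11 (10.4 ± 0.695 and 17.1 ± 0.995). In mock libraries Bcl2a1d, Bad, Bcl2a1b and Bid, at 7.42, 6.39, 5.84 and 5.78 CPM per kb, overlapped with their neighbours in that order. In GC7 libraries Bcl2a1d, at 16.2, reached the range of Bcl2l11, and Bcl2a1b (11.4), Bid (7.75) and Bad (4.97) were separate from one another. Bcl2a1a was the lowest in both groups, at 0.812 and 1.46 CPM per kb. The levels of the Bcl2a1 copies, here and in the sums below, depend on how shared reads were counted, which is not stated.

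The relative amounts of protective and pro-death mRNAs shifted within the family, as ratios of CPM per kb in each library show. These ratios were computed as a description and were not tested. The ratio of Bcl2l11 to Mcl1 was 0.119, 0.120, 0.136 and 0.127 in mock replicates 1 to 4 and 0.244, 0.263, 0.247 and 0.245 in GC7 replicates 1 to 4. It thus lay at 0.126 ± 0.00804 and 0.250 ± 0.00913 (SD, n = 4), with both genes contributing. The ratio of Bcl2l11 to Bcl2l1, by contrast, was 0.617 to 0.753 without and 0.629 to 0.753 with GC7, with 1.64-fold and 1.65-fold rises of the genes. Bcl2l11 relative to Bcl2 was 0.236, 0.310, 0.280 and 0.257 in mock and 0.314, 0.306, 0.435 and 0.364 in GC7 replicates, and the groups overlapped only through mock replicate 2.

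Mcl1 made up 53.9 to 57.1% of the summed protective mRNAs in mock libraries and 37.2 to 43.4% in GC7 libraries. The share of Bcl2l1 was 9.85 to 10.4% and 14.2 to 15.1%, and that of Bcl2 was 22.2 to 27.0% and 24.7 to 32.0%, with overlap. Among the 4 pro-death members, Bcl2l11 accounted for 16.01 to 18.3% of the sum without and 24.6 to 29.6% with GC7. The composition of both arms therefore differed more than their totals: the protective sum was 150 to 152 CPM per kb without and 169 to 173 with GC7, and the pro-death sum was 59.8 to 64.3 and 62.6 to 67.6.

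The balance of the arms depended on which genes were counted. Over the 10 members, the protective sum divided by the pro-death sum was 2.358 to 2.507 without and 2.511 to 2.762 with GC7, so the groups barely separated. The protective sum includes the Bcl2a1 copies, which gave the largest rises and whose levels are uncertain. How far this small difference rests on them was not tested. The close relatives Bcl2l2, Bax, Bbc3, Pmaip1, Bmf and Bik were then added to their arms, a choice made after the values were seen. The ratio was then 0.677 to 0.786 without and 0.554 to 0.593 with GC7, lower in every GC7 library.

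**Figure D3:**
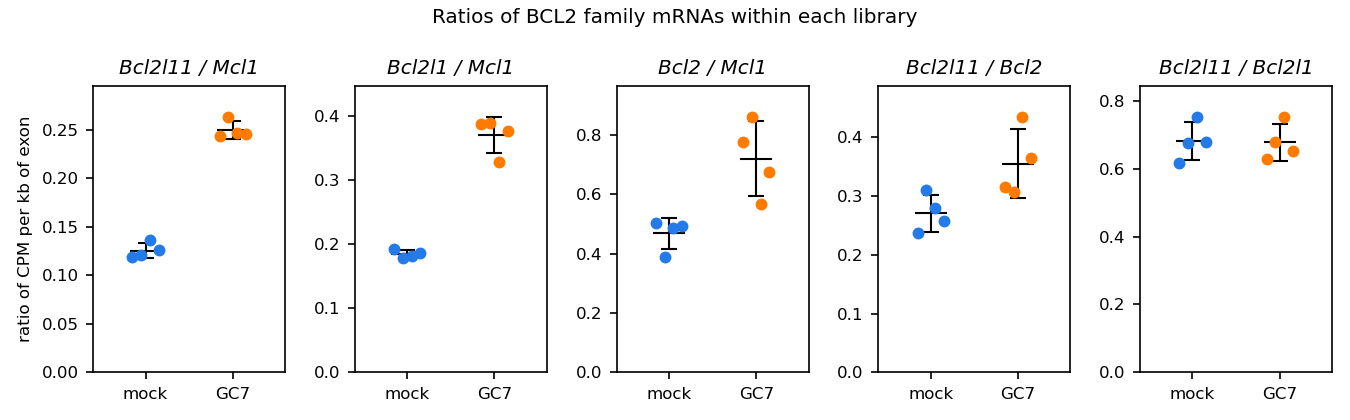
Ratios of CPM per kilobase of exon between pairs of BCL2 family mRNAs in each library (no unit, linear axes starting at 0), with points for the 4 mock (blue) and 4 GC7 (orange) libraries and the bar with whiskers for mean ± SD. Bcl2l11, Bcl2l1 and Bcl2 relative to Mcl1 are higher in all GC7 libraries, whereas Bcl2l11 relative to Bcl2l1 spans 0.617 to 0.753 and 0.629 to 0.753.

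Of the 10 close relatives of the members, 6 passed the filter and 3 of these rose, while none fell (against 23.0% and 23.5% of all genes tested). Bax, the second pore former, was at 134, 165, 139 and 132 CPM in mock and 220, 212, 231 and 235 CPM in GC7 replicates (log2 fold change 0.66, SE 0.077, FDR 1.60e-05). Bbc3 (encoding PUMA, a BH3-only protein induced by p53 and by FOXO factors) was at 53.3, 75.2, 66.0 and 63.9 CPM and at 106, 105, 124 and 116 CPM (0.80, SE 0.097, FDR 1.85e-05). Pmaip1 (encoding NOXA, a BH3-only protein that binds mainly MCL1 and A1) was at 62.8, 60.5, 63.1 and 59.9 CPM and at 118, 109, 139 and 120 CPM (0.98, SE 0.074, FDR 3.52e-07). None of these genes overlapped between the groups, so that Bax rose by 1.58-fold beside a Bak1 that did not pass the threshold.

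The remaining relatives did not pass or were hardly detected. Bcl2l2, a protective gene, had a log2 fold change of 0.25 (FDR 0.0235), the BH3-only gene Bik 0.39 (FDR 0.0358) and the BH3-only gene Bmf −0.38 (FDR 0.0805). Bok, a further relative of BAX, was under the filter with 12 to 28 counts in mock and 4 to 10 counts in GC7 libraries. Bcl2l10 and Hrk had at most 1 count and Bcl2a1c at most 2 counts in any library.

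Downstream of the mitochondrion, called apoptosome and caspase genes moved in both directions. Casp9, the initiator caspase of the apoptosome, was at 26.6, 24.6, 28.7 and 27.2 CPM in mock and 11.5, 10.8, 11.7 and 12.4 CPM in GC7 replicates, a fold of 0.436 (log2 fold change −1.20, FDR 1.30e-07). Casp6 fell from a mean of 22.9 ± 0.391 to 13.8 ± 0.764 CPM (SD, n = 4; log2 fold change −0.73, FDR 4.09e-06), and Casp8, which cleaves BID, fell by 0.28 (FDR 6.29e-04). The partners of caspase-9 in the apoptosome moved upward, Apaf1 by 0.44 (FDR 0.00356) and cytochrome c (Cycs) by 0.56 (FDR 1.62e-05). Without mock replicate 2, which was low for Apaf1, the log2 fold changes were 0.32 for Apaf1 and 0.61 for Cycs. Casp2 had a log2 fold change of −0.06 (FDR 0.468).

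Among 6 genes for inhibitors of apoptosis and their antagonists, 3 rose and none fell (against 23.0% and 23.5% of all genes tested). Htra2, a mitochondrial antagonist, rose by 0.39 (FDR 5.33e-04), and the inhibitors Birc2 and Birc3 by 0.34 and 0.29 (FDR 0.0038 and 0.00143) on the log2 scale. Birc2 was not called in 2 of the 8 fits with 1 library left out (FDR up to 0.0159), and Apaf1 was not in 1 of 8 (FDR up to 0.0121).

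Of 7 genes that act on MCL1 or BIM protein turnover or on Bcl2l11 transcription, 2 rose and 2 fell. Of all genes tested, 23.0% rose and 23.5% fell. Fbxw7 and Btrc, ubiquitin ligase components with MCL1 or BIM among their substrates, rose by 0.39 and 0.35 (FDR 4.48e-04 and 9.24e-04). Foxo1, a FOXO factor, was at 105, 99.2, 106 and 109.5 CPM in mock and at 77.7, 82.8, 73.8 and 78.7 CPM in GC7 replicates (log2 fold change −0.42, FDR 7.05e-05), while Foxo3 had a log2 fold change of 0.09 (FDR 0.254). The mRNA of Foxo1 was lower where Bcl2l11 and Bbc3 were higher, and a link between them was not tested. Fbxo4, a further ligase component, fell by 0.70 (FDR 1.13e-04).

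Of 9 other BCL2-like and BNIP genes, 7 were tested, 1 rose and 3 fell (against 23.0% and 23.5% of all genes tested). The 2 mitophagy receptors gave the largest fold changes among the tested genes of the family and the wider list. Bnip3 was at 432, 417, 421 and 414 CPM in mock and at 93.6, 99.3, 56.5 and 78.6 CPM in GC7 replicates (log2 fold change −2.36, SE 0.139, FDR 4.13e-08). Bnip3l fell from a mean of 321 ± 7.96 to 107 ± 6.24 CPM (SD, n = 4; log2 fold change −1.58, FDR 1.13e-09), and Bnip1 by 0.44 (FDR 7.64e-04). Per kilobase of exon, Bnip3 was at 186 ± 3.6 CPM in mock libraries, above Mcl1 and Bcl2, and at 36.2 ± 8.42 CPM in GC7 libraries, below both means.

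**Figure D4:**
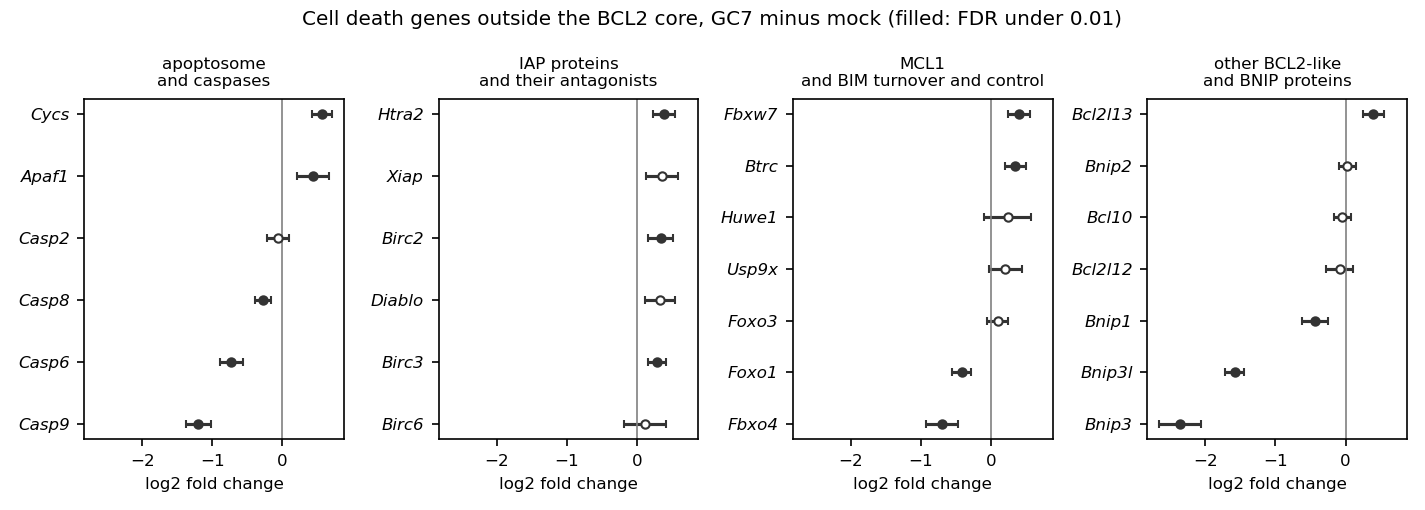
Log2 fold change (GC7 minus mock) with its 95% confidence interval for the tested genes described from 4 lists outside the BCL2 core, filled where the FDR was under 0.01. Casp9, Casp6 and Casp8 lie below 0 beside Cycs and Apaf1 above it, and Bnip3 (−2.36) and Bnip3l (−1.58) lie farthest from 0.

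Over all 40 genes of this wider list, 34 were tested, 12 rose and 9 fell, where 23.0% and 23.5% of all genes tested did, and the median log2 fold change was 0.22, against 0.02 over all genes tested. The genes whose profile over the 8 libraries was most like that of a member were found by Pearson correlation of log2 CPM, as a description over samples that fall into 2 separate groups. For Bcl2 these were Cdk6, Ccny and Ide (r = 0.995, 0.992 and 0.992), for Mcl1 Ubald2, Btg2 and Tubb2b (r = 0.994, 0.990 and 0.989), and for Bcl2l11 Ddit4l, Clec2i and Mapk9 (r = 0.997, 0.997 and 0.996).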

How the data were processed

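Messenger RNA of 4 mock- and 4 GC7-treated cultures was measured, and groups were taken from the sample titles. The authors deposited raw counts per Ensembl gene for each library, without normalisation or pooling. They trimmed paired-end reads with Cutadapt, aligned them to GRCm38 with STAR and counted them with featureCounts; strand and multi-mapping settings are not given in the sources used here. Gene models were GENCODE M21, which matched all 55536 identifiers.

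The 11189 genes that exceeded 3 CPM in 4 or more libraries were tested with edgeR (version 4.0.16, R version 4.3.3), using TMM factors, a prior count of 2, the quasi-likelihood F test and, over all genes tested, Benjamini-Hochberg adjustment. An FDR under 0.01 was a call. Data were simulated for this comparison with 11189 genes, 200 of them changed. The test called 98 of 98 changes of log2 1, 73 of 100 of log2 0.5 and 0 unchanged genes. Single values were compared by two-sided exact permutation tests. DESeq2 (version 1.42.0), limma-voom (limma version 3.58.1) and the settings listed in the closing section were alternatives. CPM are TMM-scaled, as mean ± SD, and log2 fold changes come from the edgeR fit to the counts. At the filter, 3 CPM is at least 52.6 counts, without molecular identifiers.

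The members and lists were chosen with earlier results of these data known. Named are all members and close relatives, the up to 3 largest called changes of each further list and the 3 genes most like Bcl2, Mcl1 and Bcl2l11. Casp8, Casp2, Apaf1, Cycs, Btrc, Foxo3, Bcl2l13, Gpr137, Huwe1, Birc6, Bcl2l12, Bcl10 and the cell type markers fall outside this rule and were named after their values were seen. Python (version 3.11.15) and matplotlib (version 3.10.9) were used for the sequence searches and plots. Protein sequences were not used here, and some genes of the wider list are not reported here.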

Additional observations from a re-analysis of the deposited data

Results flagged for a closer look

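A library lay apart from the other 3 of its group for 5 of the 43 tested genes of the family and the wider list, with Dixon's ratio above its critical value for 4 samples. In 4 of them it was mock replicate 2, which was lower than the other mock libraries. It was at 308.5 CPM for Bcl2 against 367 to 371 CPM (ratio 0.934), at 66.8 CPM for Apaf1 against 93.1 to 96.5 CPM (0.885), at 57.1 CPM for Casp2 against 65.8 to 67.5 CPM (0.833) and at 43.6 CPM for Birc3 against 47.2 to 47.6 CPM (0.906). For Bnip3l, mock replicate 4 was at 309.5 CPM against 323 to 326 CPM (0.831). Of 86 groups examined, 5 were flagged, where chance alone gives 4.3. Mock replicate 2 was also the library with low values for long transcripts, and Bcl2, Apaf1, Casp2 and Birc3 have 9157, 9028, 7057 and 5009 exon bases.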

How the results depend on the processing

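The alternatives were library totals, RLE scaling, leaving mitochondrially encoded genes out of the scaling, DESeq2, limma-voom, no filter, filterByExpr, a replicate block, robust estimation, a smaller prior count, the Bcl2a1 copies summed, and each library left out. Bcl2l1, Bcl2a1b, Bcl2a1d, Bcl2l11 and Bid were called under every one of them that gave a value. The count of members higher was 6, 5 to 6 with 1 library left out, and 1 when more than a 2-fold change was also required. The count lower was 1, was 0 to 2 with 1 library left out, 0 with library totals or with more than a 2-fold change, and 2 without a filter. With library totals, small values turned positive for Casp2 (0.0284), Bcl2l12 (0.00993) and Bcl10 (0.0488), and Birc6 ran from −0.0365 without mock replicate 2 to 0.181 without mock replicate 1; none passed the threshold in any of these fits. The cause of these shifts was not tested.

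Correlations of deviations were 0.27, −0.12, 0.20 and −0.18 for same-numbered libraries and −0.31 to 0.42 for differently numbered ones. These values cannot tell whether the numbers pair the samples, as they are few and overlap. With the replicate block the counts were 5 higher and 2 lower, as Bcl2 no longer passed (FDR 0.0153) and Bad did (FDR 0.00904). The simulated data held 200 changed genes among 11189, whereas 46.6% of genes were called here. The 73 of 100 changes of log2 0.5 found there therefore set no limit for smaller ones. For Bad and Bak1 the 95% intervals were −0.64 to −0.08 and −0.26 to 0.01. Bcl2a1a was too low to be tested.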
